A study of Mus musculus with 22 samples.

Results

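Metallothioneins and the zinc transporters that work beside them were described here as a set of 8 genes of 22485 that were measured, read by 9 of 43020 probes. The set holds the metallothioneins Mt1, Mt2 and Mt3, the importers Slc39a12, Slc39a14 and Slc39a1, and the exporters Slc30a1 and Slc30a10. The members were chosen by name, with earlier results of these data known, and every probe annotated with one of these symbols was taken. Slc39a12 alone had a second probe, and the brighter of the pair, by its mean across 22 samples, stood for the gene.

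Metallothioneins are small, cysteine-rich proteins that bind zinc and copper in the cytosol and release them again. Their genes are known to be switched on by metals through the zinc-sensing factor MTF1, and by glucocorticoids and by cytokines that act through STAT3. Proteins of the ZIP family (Slc39a genes) bring zinc into the cytosol, and proteins of the ZnT family (Slc30a genes) move it out of the cytosol into vesicles or out of the cell. In cortex, astrocytes are a main site of metallothionein expression, and zinc is known to bind amyloid-beta peptide.

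The samples were microglia and astrocytes sorted from the cortex of APPswe/PS1dE9 mice (APP/PS1 below) and of wild-type littermates (WT), all C57BL/6 and aged 15 to 18 months. APP/PS1 mice carry transgenes driven by prion protein gene sequence, which is active in many brain cells, and deposit amyloid in the cortex. After perfusion and papain digestion, debris and myelin were removed, O4-stained cells and dead cells were gated away, and GLT1+/CD11b- cells were taken as astrocytes and CD11b+/CD45+ cells as microglia. There were 4 APP/PS1 and 4 WT astrocyte samples and 7 APP/PS1 and 7 WT microglia samples, which the design calls biological replicates. On each of 11 dual-colour Agilent arrays an APP/PS1 sample was hybridised with the WT sample of its number and cell type, so every genotype difference below was taken within arrays, as APP/PS1 minus WT on the log2 scale. The limma p-values and SEs rest on the spread between these samples, pooled over both cell types in a joint fit. Those for astrocytes thus draw on the microglia arrays too.

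Array depth and sample identity bear on the values as follows. The deposited log2 values had nearly equal medians in all samples, and the highest value of the table was 17.89. Astrocyte arrays had values for 42427 to 42869 probes and microglia arrays for 32045 to 40771. All 10 astrocyte markers were higher in WT astrocytes than in WT microglia and 9 of 10 microglia markers were lower. Endothelial markers (8 of 9) and mural markers (7 of 8) were also higher in the astrocyte samples. With genotype, 9 of 10 astrocyte markers were lower and 1 was higher in APP/PS1 astrocyte samples, while 8 of 10 microglia, 7 of 9 endothelial and 6 of 8 mural markers were higher. Eif2s3y, a Y-linked gene, split the 2 samples of an array on astrocyte arrays 1 and 3 and on microglia array 1, high in the APP/PS1 and low in the WT sample each time. All 4 astrocyte arrays lay on 1 slide that held no microglia, and an effect of slide cannot be told apart from one of cell type.

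The 3 metallothionein genes lie side by side on mouse chromosome 8, on the plus strand, in the order Mt4, Mt3, Mt2 and Mt1 (RefSeq, GRCm38.p6). Mt3 spans chr8:94152607-94154148, Mt2 spans chr8:94172618-94173567 and Mt1 spans chr8:94178883-94180327, with 18469 bases between Mt3 and Mt2 and 5315 bases between Mt2 and Mt1. Mt4, whose product is known from squamous epithelium, starts 5' of them and ends 13575 bases before Mt3. The transporter genes are spread over the genome: Slc30a1 at chr1:191906697-191913248, Slc30a10 at chr1:185454848-185468762, Slc39a12 at chr2:14388316-14494977, Slc39a1 at chr3:90248190-90253613 and Slc39a14 at chr14:70303467-70351452. Promoter windows from 250 bases before to 50 bases after the start that the RefSeq table uses were found for 7 of the 8 genes. For Mt1, Slc30a1, Slc39a12 and Slc39a1 that start lies inside the gene span given here, which begins further upstream, so part of the window, and most of it for Mt1, lies within the span. They were searched on both strands for the core of the metal response element that MTF1 binds, spelled TGCACNC or TGCGCNC. Below are the windows of the 3 metallothionein genes, neighbours that differed in their genotype changes, and of Slc30a1, the zinc exporter gene that is known as an MTF1 target. Capitals mark matches to the core, and a match on the minus strand appears as its reverse complement.
Mt1 (chr8:94178839-94179138, plus strand): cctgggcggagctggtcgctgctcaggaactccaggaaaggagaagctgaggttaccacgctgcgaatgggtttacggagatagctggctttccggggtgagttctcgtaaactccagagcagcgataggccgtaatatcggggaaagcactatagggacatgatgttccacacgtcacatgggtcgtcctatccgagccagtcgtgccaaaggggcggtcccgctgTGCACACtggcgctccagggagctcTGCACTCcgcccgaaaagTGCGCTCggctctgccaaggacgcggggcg
Mt2 (chr8:94172368-94172667, plus strand): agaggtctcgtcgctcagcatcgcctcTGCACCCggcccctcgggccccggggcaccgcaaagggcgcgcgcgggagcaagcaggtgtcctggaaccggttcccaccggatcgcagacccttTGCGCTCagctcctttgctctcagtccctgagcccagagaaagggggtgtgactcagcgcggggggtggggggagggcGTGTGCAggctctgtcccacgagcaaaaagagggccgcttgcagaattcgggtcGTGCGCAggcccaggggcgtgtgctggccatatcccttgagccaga
Mt3 (chr8:94152357-94152656, plus strand): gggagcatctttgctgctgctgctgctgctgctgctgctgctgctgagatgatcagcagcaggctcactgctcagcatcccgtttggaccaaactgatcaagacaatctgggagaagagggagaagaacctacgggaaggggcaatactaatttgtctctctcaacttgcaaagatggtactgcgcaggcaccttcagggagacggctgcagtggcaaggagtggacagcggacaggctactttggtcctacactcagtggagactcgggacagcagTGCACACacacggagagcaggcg
Slc30a1 (chr1:191906531-191906830, plus strand): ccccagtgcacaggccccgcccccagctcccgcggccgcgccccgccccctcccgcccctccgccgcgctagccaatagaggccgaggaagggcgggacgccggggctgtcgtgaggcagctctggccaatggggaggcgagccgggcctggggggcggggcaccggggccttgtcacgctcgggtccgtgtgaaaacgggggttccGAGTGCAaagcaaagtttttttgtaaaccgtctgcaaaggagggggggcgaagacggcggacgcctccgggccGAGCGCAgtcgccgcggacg
Mt2 held 4 matches, a number reached by 0.517% of 32851 promoter windows of the same length. Mt1 held 3, which 1.97% of windows reach, and Slc30a1 held 2, which 7.11% reach. Mt3 held 1 match, as 25.7% of windows do at least. Slc30a10 held 3, of which a pair on opposite strands overlap, while Slc39a1 and Slc39a12 held 0. The core of the antioxidant response element, spelled TGACNNNGC, was found once each in Mt2, Slc30a1 and Slc39a1 and in 12.4% of all windows, and a STAT site spelled TTCNNNGAA in none of the 7 and in 8.30% of all windows. These are matches of letters in a window, and binding was not measured. Bases past a window, which for Mt1 include the rest of its gene span, were not searched. The counts, and the lack of a match, hold for these windows alone.

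**Figure D1:**
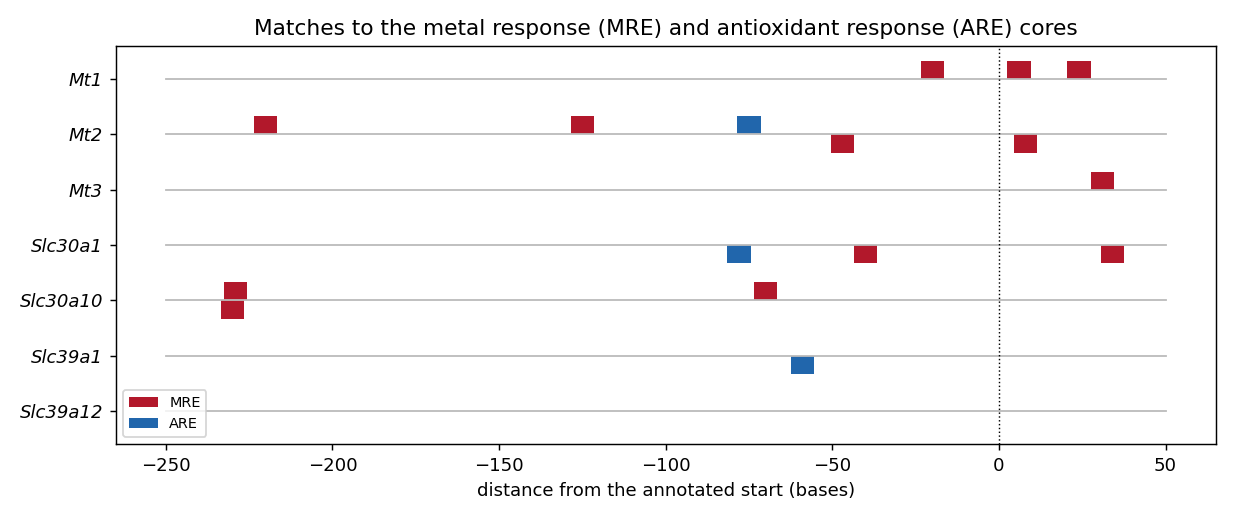
Matches to the metal response core (red) and the antioxidant response core (blue) in the promoter windows of the 7 genes that had one, by distance in bases from the start that the RefSeq promoter table uses. Bars above a line are on the plus strand and bars below it on the minus strand. Mt2 has 4 red bars, Mt1 and Slc30a10 3 each, Slc30a1 2 and Mt3 1.

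In astrocytes all 8 genes stood above their level in microglia. In WT samples the difference, astrocytes minus microglia, ran from 0.68 ± 0.13 log2 units for Slc39a1 to 6.46 ± 0.27 for Mt2 (SE) over the genes measured on every microglia array, and 8 of 8 genes passed (limma, Benjamini-Hochberg adjusted p at most 1.89e-04), where 54.1% of 21966 genes passed and 35.7% were higher in astrocytes. The median of the 8 differences was 4.20, beside 0.34 over all genes tested. The fitted difference of Slc30a10, 6.77 ± 0.45, rests on 2 of 7 microglia arrays with low values not shown to be above background, so its size is uncertain. Slc39a12 was higher by 5.36 ± 0.39, Mt3 by 5.04 ± 0.26, Mt1 by 3.36 ± 0.23, Slc30a1 by 2.70 ± 0.29 and Slc39a14 by 1.47 ± 0.25.

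**Figure D2:**
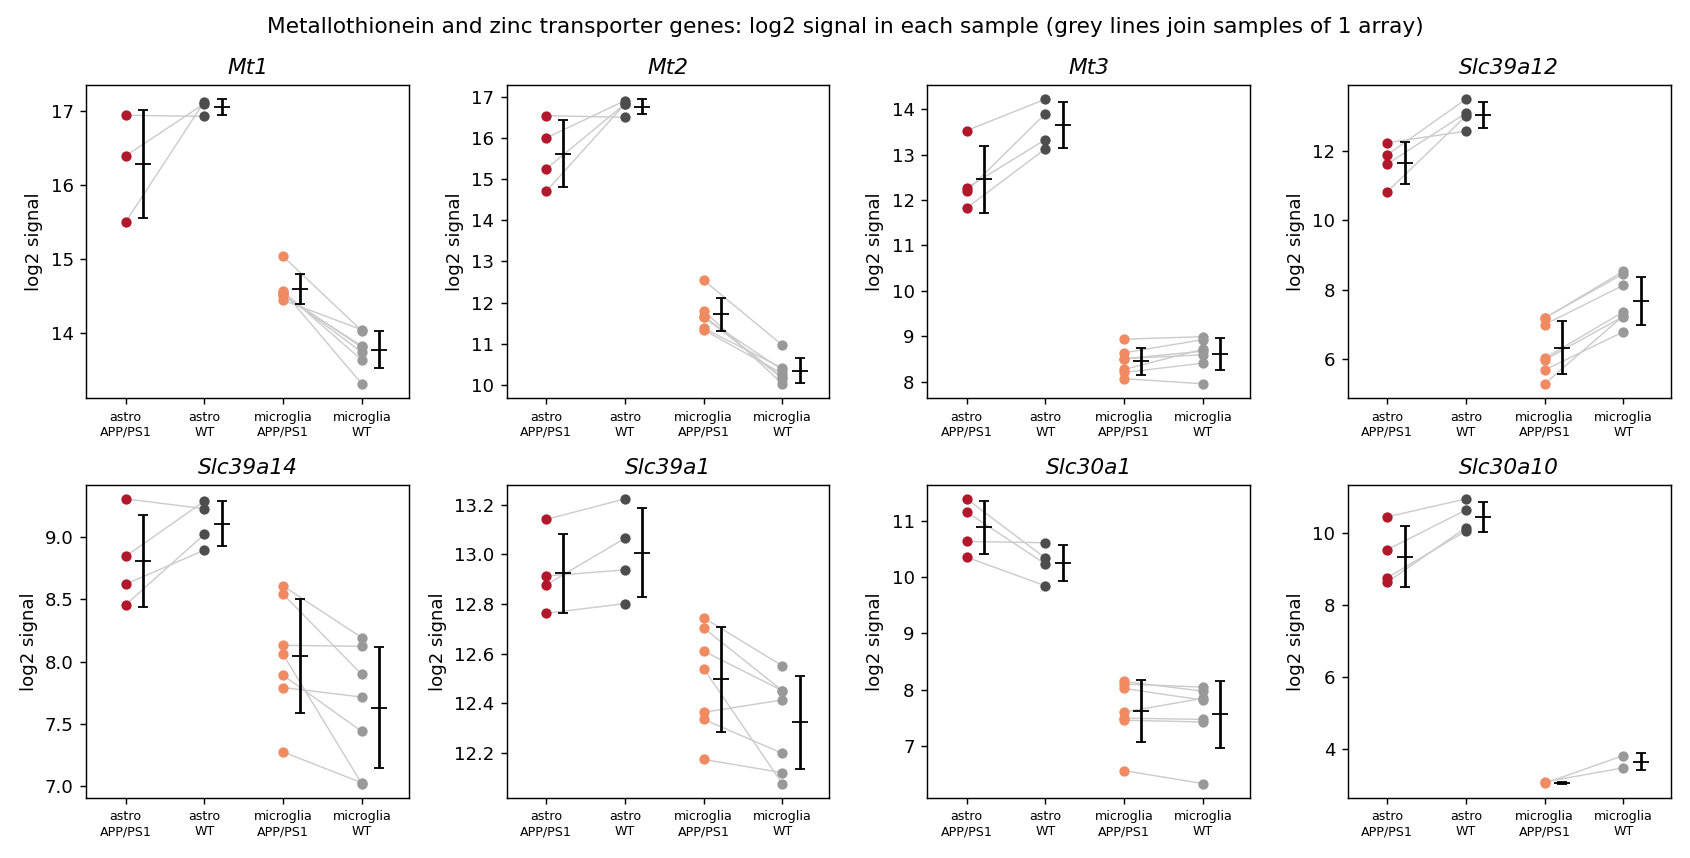
Deposited log2 signal of each of the 8 genes in every sample, with APP/PS1 and WT astrocytes and then APP/PS1 and WT microglia from left to right, and its own y axis for each gene. Points are samples, grey lines join the 2 samples of an array, and black marks are the mean and SD. Mt1 and Mt2 lie lower in most APP/PS1 astrocyte samples and higher in every APP/PS1 microglia sample, while Slc39a12 lies lower in APP/PS1 samples of both cell types.

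The genotype differences were not alike in the 2 cell types. In APP/PS1 astrocytes 6 of 8 genes passed the test, 5 lower (Mt1, Mt2, Mt3, Slc39a12 and Slc30a10) and 1 higher (Slc30a1), where 33.5% of 22477 genes passed, 15.4% higher and 18.0% lower. In APP/PS1 microglia 4 of 8 passed, 3 higher (Mt1, Mt2 and Slc39a14) and 1 lower (Slc39a12), where 20.1% of 21971 genes passed, 8.45% higher and 11.6% lower. Median differences over the 8 genes were -0.99 in astrocytes and 0.12 in microglia, beside -0.07 and -0.04 over all genes. The test of the difference between the cell types, astrocyte effect minus microglia effect, passed for 4 of 8 genes (Mt1, Mt2, Mt3 and Slc39a14), each with the lower effect in astrocytes, where 27.0% of 21966 genes passed and 13.4% passed in that direction. These samples are bulk RNA from sorted cells, in which fewer cells of a type and less RNA per cell cannot be told apart.

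**Figure D3:**
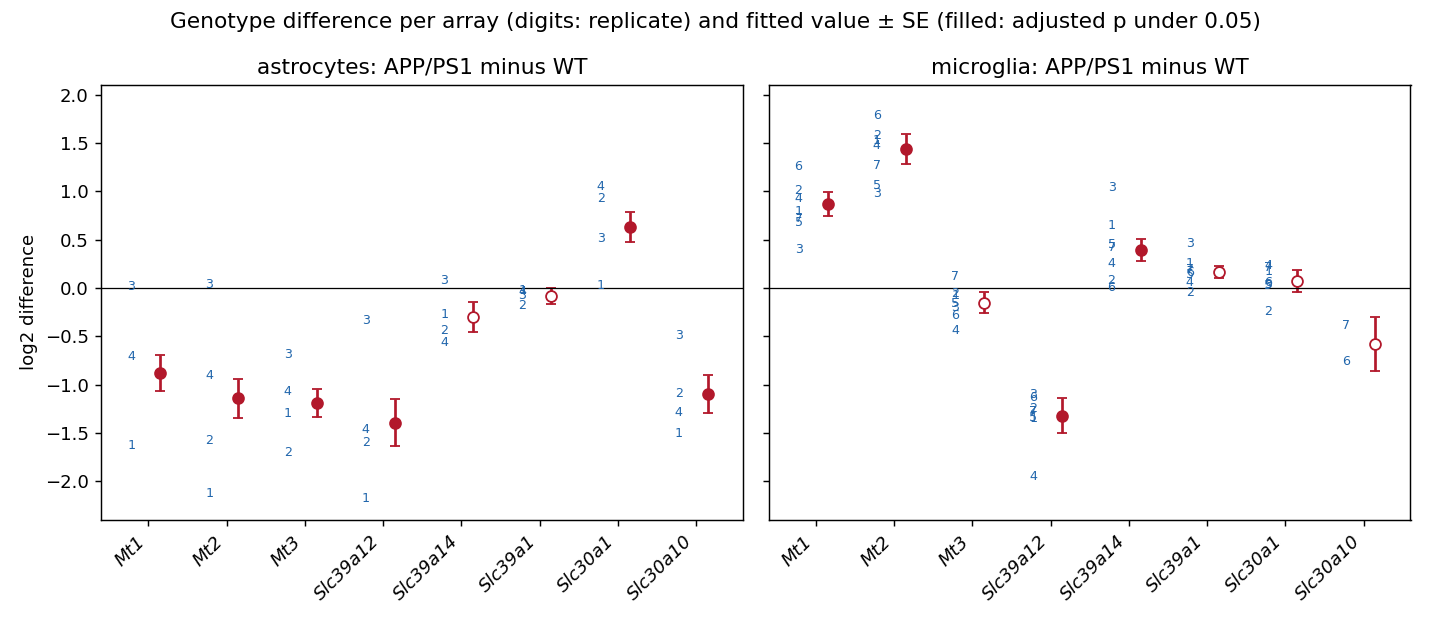
Genotype difference of each gene (log2, APP/PS1 minus WT) in astrocytes (left) and microglia (right). Digits are single arrays by replicate number, and circles with bars are the fitted difference and its SE, filled where the adjusted p is under 0.05. Mt1 and Mt2 are negative in astrocytes and positive in microglia, and replicate 3 gives the smallest astrocyte change of Mt1, Mt2, Mt3, Slc39a12 and Slc30a10.

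Mt1 encodes one of the 2 metallothioneins that most tissues make, and it rose in APP/PS1 microglia and was lower in APP/PS1 astrocytes. Its log2 signal in APP/PS1 microglia was 14.44 at the lowest, 14.52 at the median and 15.03 at the highest, against 13.31, 13.80 and 14.04 in WT microglia. Every APP/PS1 microglia sample lay above every WT one. The fitted change was 0.87 ± 0.12 (1.83-fold higher, limma adjusted p = 0.00132), higher on 7 of 7 arrays, with single arrays between 0.40 and 1.25. An exact two-sided sign-flip test over the 7 arrays gave p = 0.0156, the smallest it can give. On microglia slide 2 alone (3 arrays) the change was 1.00 and the adjusted p 0.0615.

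In APP/PS1 astrocytes Mt1 measured 15.50, 16.94 and 16.39 in replicates 1, 3 and 4, against 17.12, 16.92 and 17.09 in WT astrocytes of the same arrays. The probe was blank in both samples of array 2, which the fit dropped for this gene. Replicates 1 and 4 were lower in APP/PS1 and replicate 3 was level with its WT partner, so the groups overlapped. Mt1 fell by 0.88 ± 0.19 on the log2 scale (1.84-fold lower, limma adjusted p = 0.00674), lower on 2 of 3 arrays. The exact sign-flip p was 0.5, where 3 arrays cannot give less than 0.25. Without replicate 1 the change was -0.55 with an adjusted p of 0.0955, and in a fit of astrocyte samples alone it was -0.99 with an adjusted p of 0.0908. Single-array differences of Mt1 had an SD of 0.82 in astrocytes and 0.27 in microglia, which share a spread in the main fit. The 2 cell types differed by -1.75 ± 0.23 in their change (adjusted p = 7.90e-04). From high to low the groups ran WT astrocytes, APP/PS1 astrocytes, APP/PS1 microglia and WT microglia, and the overlap of the astrocyte groups was the only one between neighbours.

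Mt2, the partner that is induced together with Mt1 in most settings, showed the largest rise of the 8 genes in microglia. Its values in APP/PS1 microglia were 11.34 at the lowest, 11.65 at the median and 12.54 at the highest, against 10.02, 10.27 and 10.97 in WT microglia. The groups did not overlap, and the sample of replicate 2 was the highest of both. The rise was 1.44 ± 0.16 (2.71-fold, limma adjusted p = 1.86e-04) and was seen on 7 of 7 arrays, with 0.97 the smallest and 1.78 the largest, and the exact sign-flip p was 0.0156. By size it stood at rank 313 of 21971 genes.

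Mt2 in APP/PS1 astrocytes measured 14.70, 15.25, 16.55 and 16.00 in replicates 1 to 4, against 16.83, 16.83, 16.51 and 16.91 in WT astrocytes. The WT samples were close together and the APP/PS1 samples were spread widely, with replicate 3 alone reaching the WT range. Fitted over the 4 arrays, Mt2 fell by 1.14 ± 0.20 on the log2 scale (2.21-fold lower, limma adjusted p = 0.0021), lower on 3 of 4 arrays, and by rank it was 554th from the bottom of 22477 genes. The exact sign-flip p was 0.25, where 4 arrays cannot give less than 0.125. Fitted in astrocyte samples alone, the same difference had an adjusted p of 0.0506. As for Mt1, single-array differences were more spread in astrocytes (SD 0.93) than in microglia (SD 0.29). The change differed between the cell types by -2.58 ± 0.26 (adjusted p = 1.48e-04), the 76th lowest of 21966 genes. Levels ran in the same order as for Mt1, and only the astrocyte groups overlapped.

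Mt3 is the metallothionein that is made mainly in brain, in neurons and astrocytes, and it fell in astrocytes with no change past the threshold in microglia. APP/PS1 astrocytes measured 11.82, 12.19, 13.53 and 12.26 in replicates 1 to 4, against 13.13, 13.90, 14.22 and 13.33 in WT astrocytes. Every APP/PS1 sample lay below its WT partner, and replicate 3 of APP/PS1 alone lay within the WT range. Mt3 fell by 1.19 ± 0.15 on the log2 scale (2.29-fold lower, limma adjusted p = 3.52e-04), on 4 of 4 arrays. The exact sign-flip p was 0.125, the smallest that 4 arrays can give. In APP/PS1 microglia the values were 8.06, 8.50 and 8.93 at the lowest, median and highest, against 7.95, 8.67 and 8.99 in WT microglia. These ranges overlapped almost wholly, and the difference was -0.15 ± 0.11 (adjusted p = 0.40, interval -0.40 to 0.10). The cell types differed by -1.04 ± 0.18 (adjusted p = 0.00269), a call that was lost in the fit without arrays as a block (adjusted p = 0.14). Groups ran from WT astrocytes through APP/PS1 astrocytes and WT microglia to APP/PS1 microglia, the last 2 not differing beyond their spread.

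Among the importers, Slc39a12, a ZIP gene expressed chiefly in brain, was lower in both cell types. In APP/PS1 astrocytes it measured 10.82, 11.88, 12.22 and 11.61 in replicates 1 to 4, against 12.99, 13.48, 12.56 and 13.08 in WT astrocytes. The groups did not overlap, and replicate 3 again held the smallest difference. An exact sign-flip test over the 4 arrays gave p = 0.125, its lowest possible value. Slc39a12 fell by 1.39 ± 0.24 on the log2 scale (2.63-fold lower, limma adjusted p = 0.00173), on 4 of 4 arrays, with an adjusted p of 0.0541 in the fit without arrays as a block. In APP/PS1 microglia its values were 5.29 at the lowest, 6.03 at the median and 7.18 at the highest, against 6.79, 7.36 and 8.53 in WT microglia. Here the ranges overlapped, but each APP/PS1 sample lay below its own partner, with differences from -1.95 to -1.10. The fitted change was -1.32 ± 0.18 (2.50-fold lower, adjusted p = 7.93e-04), lower on 7 of 7 arrays, the 163rd lowest of 21971 genes, with an exact sign-flip p of 0.0156.

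The change of Slc39a12 did not differ detectably between the cell types (-0.07 ± 0.30, adjusted p = 0.89, interval -0.74 to 0.60). Its second probe gave -0.98 ± 0.23 in astrocytes (adjusted p = 0.00779, lower on 3 of 4 arrays) and -1.35 ± 0.17 in microglia (adjusted p = 5.05e-04, lower on 7 of 7), with both calls on the same side of the threshold as the main probe. Levels ran from WT astrocytes through APP/PS1 astrocytes and WT microglia to APP/PS1 microglia. Astrocyte markers also differed by genotype in the microglia samples: 4 of 10 were lower and 1, Gfap, was higher, and the median marker was -0.76. The summed level of the 8 astrocyte markers measured on all arrays was 10.8 to 11.7 in APP/PS1 and 11.5 to 12.4 in WT microglia (log2). Their part in the result was not tested.

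Slc39a14 encodes an importer of zinc, manganese and iron that is induced by interleukin-6 in liver. In APP/PS1 microglia its values were 7.27, 8.06 and 8.61 at the lowest, median and highest, against 7.02, 7.72 and 8.19 in WT microglia. The ranges overlapped, and the difference was above 0 on 7 of 7 arrays but ran from 0.01 to 1.04. Slc39a14 rose by 0.39 ± 0.12 (1.31-fold, limma adjusted p = 0.0394). This call was lost when any 1 of the 7 microglia arrays was left out (adjusted p 0.0507 to 0.0907), and without arrays as a block (adjusted p = 0.493). APP/PS1 astrocytes measured 8.62, 8.85, 9.31 and 8.46, against 8.90, 9.29, 9.23 and 9.02 in WT astrocytes, again with replicate 3 at the WT level. The astrocyte difference was -0.30 ± 0.15 (adjusted p = 0.161), and without replicate 3 it was -0.50 with an adjusted p of 0.0217. The cell types differed by -0.69 ± 0.19 (adjusted p = 0.0232), a call lost without astrocyte replicate 1, 2 or 4 (0.0727, 0.0873 and 0.0625) or without the block (0.337). Neighbouring groups in the order WT astrocytes, APP/PS1 astrocytes, APP/PS1 microglia and WT microglia all overlapped.

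Slc39a1, a ZIP importer of the plasma membrane found in most tissues, held a high signal everywhere and showed no change past the threshold. APP/PS1 astrocytes measured 12.91, 12.88, 13.14 and 12.76, against 12.94, 13.07, 13.22 and 12.80 in WT astrocytes. In APP/PS1 microglia the values were 12.17, 12.54 and 12.75 at the lowest, median and highest, against 12.08, 12.41 and 12.55 in WT microglia. Genotype groups overlapped in both cell types. The difference was -0.08 ± 0.08 in astrocytes (limma adjusted p = 0.497, interval -0.27 to 0.10) and 0.16 ± 0.06 in microglia (adjusted p = 0.106, interval 0.02 to 0.31). Of the 8 genes it had the smallest difference between cell types in WT samples. Levels ran WT astrocytes, APP/PS1 astrocytes, APP/PS1 microglia and WT microglia, with overlap within each cell type.

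Slc30a1 encodes the zinc exporter of the plasma membrane, and it was the only member to rise in APP/PS1 astrocytes. Replicates 1 to 4 measured 10.64, 11.16, 10.36 and 11.40 in APP/PS1 astrocytes, against 10.61, 10.24, 9.85 and 10.34 in WT astrocytes. The difference was above 0 on 4 of 4 arrays but only 0.02 on array 1, and the groups overlapped. By exact sign-flip test p was 0.125, the smallest that 4 arrays can give. Slc30a1 rose by 0.63 ± 0.15 (1.55-fold, limma adjusted p = 0.0111), opposite in direction to Mt1, Mt2 and Mt3 in the same samples. Leaving out replicate 2 (adjusted p = 0.0663) or 4 (0.0597) ended the call, as did fits of astrocyte samples alone (0.127) and without arrays as a block (0.328), while on arrays 2 and 4, whose samples matched in Eif2s3y, the change was 0.99 (adjusted p = 0.00545).

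Slc30a1 in APP/PS1 microglia ran from 6.56 through a median of 7.60 to 8.15, against 6.33, 7.81 and 8.05 in WT microglia. These ranges covered each other, and the difference was 0.07 ± 0.12 (adjusted p = 0.741, interval -0.19 to 0.33). The change differed between cell types by 0.56 ± 0.19 (adjusted p = 0.0601), and it passed in 5 alternatives, for example without astrocyte replicate 1 (0.79, adjusted p = 0.00843). By mean, its order of levels was APP/PS1 astrocytes, WT astrocytes, APP/PS1 microglia (7.62) and WT microglia (7.56), with a gap only between the cell types. The microglia medians ran the other way, and those groups did not differ beyond their spread.

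Slc30a10, named as a zinc exporter but known in people and mice as the manganese exporter whose loss causes manganese overload, fell in astrocytes. APP/PS1 astrocytes measured 8.63, 9.53, 10.44 and 8.75 in replicates 1 to 4, against 10.14, 10.62, 10.93 and 10.04 in WT astrocytes. Each APP/PS1 sample lay below its partner, and replicate 3 of APP/PS1 lay within the WT range. The exact sign-flip p over the 4 arrays was 0.125, its lowest possible value. Slc30a10 fell by 1.10 ± 0.20 on the log2 scale (2.14-fold lower, limma adjusted p = 0.0133), on 4 of 4 arrays. Leaving out replicate 1, 2 or 4 took the adjusted p to between 0.0573 and 0.0587, and without arrays as a block it was 0.114. In microglia the probe was blank on 5 of 7 arrays. On arrays 6 and 7 it measured 3.06 and 3.10 in APP/PS1 microglia, against 3.83 and 3.49 in WT microglia, and the difference of -0.58 ± 0.28 rests on these 2 arrays (adjusted p = 0.25). Its levels ran WT astrocytes, APP/PS1 astrocytes, WT microglia and APP/PS1 microglia, and the microglia end of that order has 2 values a group.

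The size of the astrocyte differences varied between arrays, for these genes and for cell type markers. Mt2 differed by -2.12, -1.58, 0.04 and -0.91 on arrays 1 to 4, and Slc39a12 by -2.18, -1.60, -0.33 and -1.47. The median astrocyte marker differed by -2.25, -1.81, -0.31 and -1.26 on the same arrays, so array 3 had the smallest difference in each. Mt3 and Slc30a10 also had their smallest difference on array 3 but ordered the other arrays differently. Median mural markers differed by 1.81, 2.92, 2.11 and 1.26, endothelial markers by 0.26, 1.39, 0.60 and 1.67, and microglia markers by 3.38, 1.75, 1.46 and 0.10. The summed level of 8 astrocyte markers was 16.2 to 18.2 in APP/PS1 and 18.5 to 18.6 in WT astrocytes (log2), and that of 6 mural markers 16.5 to 18.3 and 14.1 to 16.8. The part of these cells in the lower Mt1, Mt2, Mt3, Slc39a12 and Slc30a10 was not tested. Slc30a1, which was higher, differed by 0.02, 0.92, 0.51 and 1.05 on arrays 1 to 4, the same array order as the endothelial markers. The part of endothelial cells in that rise was not tested either. The summed level of 9 microglia markers was 15.13, 13.43, 14.46 and 13.51 in APP/PS1 astrocyte samples 1 to 4, against 13.44, 13.71, 14.54 and 13.50 in WT ones. That sum is weighted to Itgam, the brightest of the list in astrocyte samples, with a mean of 12.90 in APP/PS1 and 13.50 in WT. Itgam fell by 0.59 ± 0.09 (limma adjusted p = 7.13e-04), while 8 of the 10 microglia markers rose. The sum therefore does not show on which arrays the other microglia markers were higher.

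Markers of other cells moved in the microglia samples too, beside the higher Mt1 and Mt2 and the lower Slc39a12. Perivascular macrophage and monocyte markers were lower for 4 of 5 (median -0.95), neuron markers for 4 of 8 (-0.43) and microglia markers for 5 of 10, with 2 higher (-0.53). Of endothelial markers 2 of 9 were higher (median 0.07), and of mural markers 1 of 8 (0.03). The summed level of 8 endothelial markers was 13.8 to 14.4 in APP/PS1 and 12.3 to 13.7 in WT microglia (log2), higher in APP/PS1 on every array. That sum is weighted to Slc2a1, the brightest of the list, with a mean of 13.47 in APP/PS1 and 11.22 in WT microglia. The median endothelial marker was lower in APP/PS1 on array 2 (-0.15) and array 5 (-0.22). The 2 endothelial markers that passed were Flt1 (2.72 ± 0.21) and Slc2a1 (2.30 ± 0.17), named after their values were seen. The part of these markers in the microglia results was not tested.

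**Figure D4:**
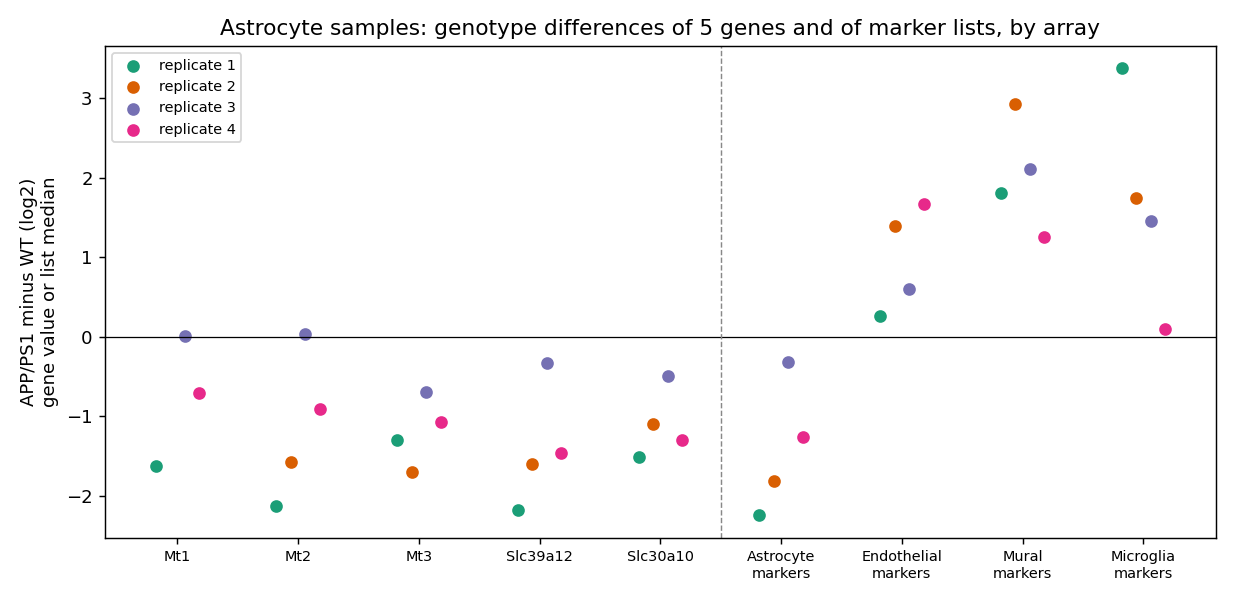
Difference of 5 genes and of the median of 4 marker lists (log2, APP/PS1 minus WT) on each of the 4 astrocyte arrays, coloured by replicate. Replicate 3 is the highest for Mt1, Mt2, Mt3, Slc39a12, Slc30a10 and the astrocyte markers, and mural markers are above 0 on every array.

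Genes of dissociation stress and the immediate early response, which tissue digestion is known to raise, also moved in astrocyte samples. Of 10, 9 were higher in APP/PS1 astrocytes (median 1.42), with array medians of 1.71, 1.69, 1.37 and 1.01, and 3 were higher and 1 lower in APP/PS1 microglia (median 0.05). Their part in the metallothionein changes was not tested.

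Further zinc transporters had smaller fitted changes than Slc39a12. Of the 11 other ZIP genes, 3 were higher and 4 lower in APP/PS1 astrocytes (median -0.21, beside -0.07 over all genes), and 1 was higher and 2 lower in APP/PS1 microglia (median -0.12, beside -0.04). In astrocytes Slc39a8, an importer of zinc, manganese and cadmium, rose by 1.11 ± 0.22 (adjusted p = 0.00342), while Slc39a13 fell by 0.46 ± 0.07 (8.08e-04), Slc39a7, which releases zinc from the endoplasmic reticulum, by 0.48 ± 0.09 (0.00265) and Slc39a4 rose by 0.61 ± 0.14 (0.00707). Slc39a4, the intestinal zinc importer, rose in microglia too (0.49 ± 0.10, adjusted p = 0.00879), where Slc39a13 fell by 0.21 ± 0.05 (0.0173) and Slc39a3 by 0.25 ± 0.06 (0.0206). In contrast to Slc39a12 and the other members, Slc39a4 was lower in WT astrocytes than in WT microglia, by -4.73 ± 0.16. Of the 8 other ZnT genes, Slc30a6, which loads zinc into the Golgi, fell in astrocytes by 0.62 ± 0.11 (adjusted p = 0.0024), and 7 did not pass (median -0.10). In microglia 0 of these 8 passed (limma), with Slc30a7 at -0.21 ± 0.09 (adjusted p = 0.13) the nearest. Mt4 did not pass in either cell type (-0.28 ± 0.10 in astrocytes, adjusted p = 0.0556, and 0.05 ± 0.07 in microglia, adjusted p = 0.694).

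**Figure D5:**
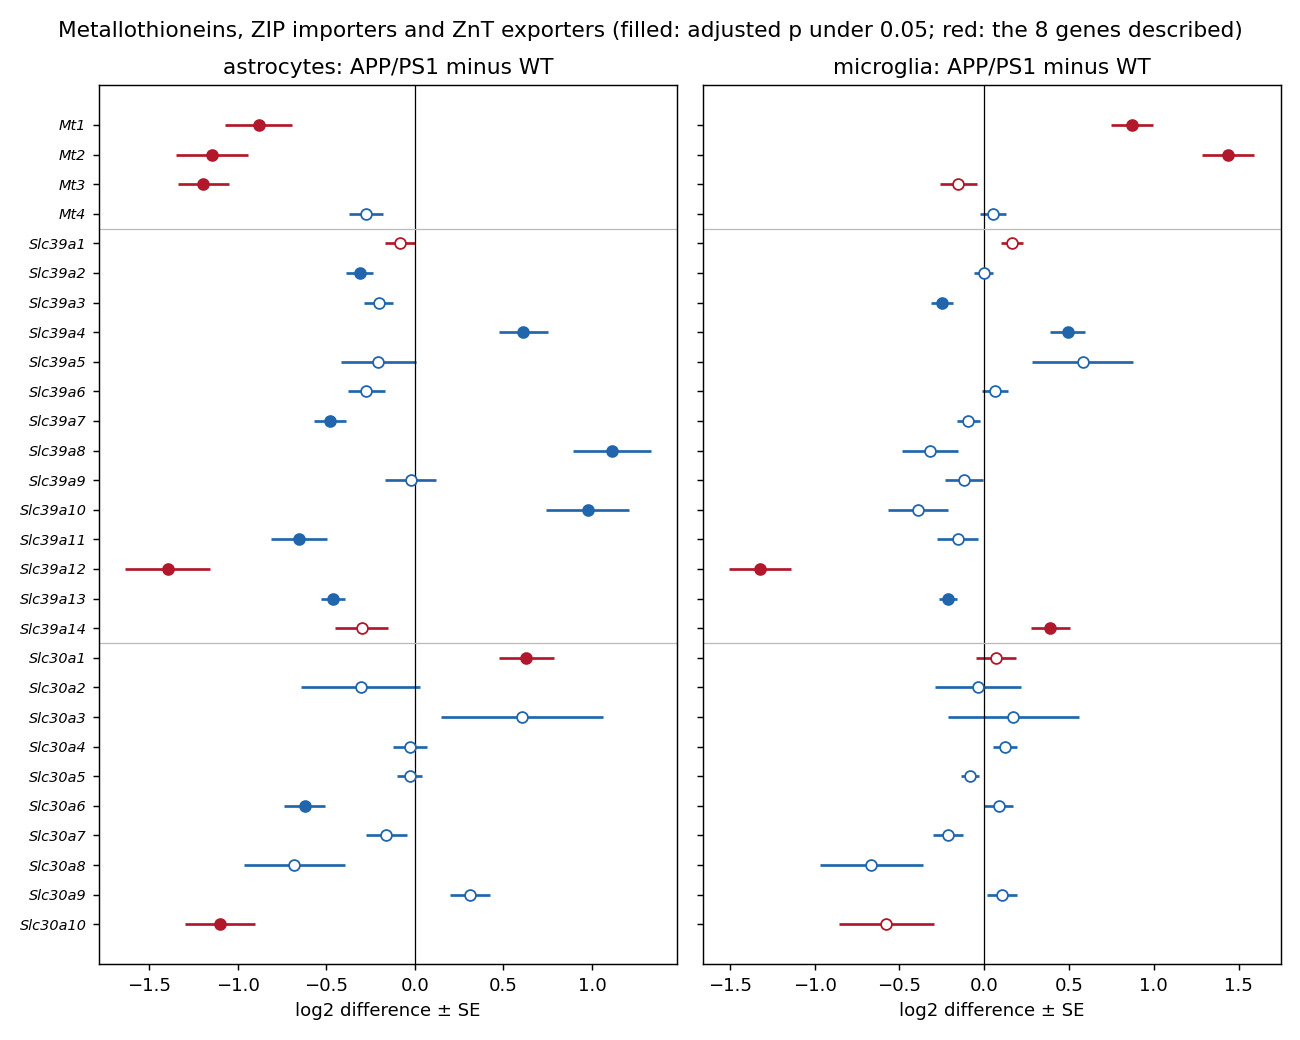
Genotype difference (log2, APP/PS1 minus WT, ± SE) of 4 metallothioneins, 14 ZIP genes and 10 ZnT genes in astrocytes (left) and microglia (right). Filled circles passed an adjusted p of 0.05, and red marks the 8 genes described. Mt1 and Mt2 sit left of 0 in astrocytes and right of 0 in microglia, and most ZnT genes are open circles near 0.

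Known regulators of metallothionein genes were looked at next. Of 8, 4 were higher and 1 lower in APP/PS1 astrocytes (median 0.26), and 3 were lower in APP/PS1 microglia (median -0.10). Mtf1, the zinc sensor, did not pass in astrocytes (-0.03 ± 0.12, adjusted p = 0.875) or microglia (-0.19 ± 0.09, adjusted p = 0.184). In astrocytes the cytokine receptor genes Osmr, Il6st and Il6ra rose by 1.37 ± 0.15 (adjusted p = 2.30e-04), 1.07 ± 0.15 (6.40e-04) and 0.80 ± 0.13 (0.00151), and Stat3, which acts downstream of them, by 0.46 ± 0.10 (0.00542). Nfe2l2, the antioxidant response factor, fell by 0.42 ± 0.13 (0.0277). In microglia Il6ra fell by 0.80 ± 0.10 (adjusted p = 5.24e-04), Lifr by 0.51 ± 0.08 (0.00217) and the glucocorticoid receptor gene Nr3c1 by 0.39 ± 0.10 (0.0194).

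Genes known to be induced by glucocorticoids split both ways. Of 13, 5 were higher and 5 lower in APP/PS1 astrocytes (median -0.34), and 3 were higher and 4 lower in APP/PS1 microglia (median 0.02). In astrocytes the lipid droplet gene Plin4 rose by 2.03 ± 0.19 (adjusted p = 1.44e-04), Sgk1 by 1.35 ± 0.17 (3.64e-04) and the cell cycle inhibitor gene Cdkn1a by 1.26 ± 0.19 (0.00101), while Tsc22d3, a widely used readout of glucocorticoid action, fell by 1.45 ± 0.19 (4.52e-04). In microglia Cdkn1a rose by 2.89 ± 0.15 (adjusted p = 2.62e-06), Zbtb16 by 1.87 ± 0.16 (4.88e-05) and Ddit4 by 1.37 ± 0.23 (0.00235), and Tsc22d3 fell by 0.97 ± 0.14 (0.00126).

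Genes that handle copper and manganese, the other metals of these proteins, moved in both directions. Of 10 copper genes, 3 were higher and 2 lower in APP/PS1 astrocytes and 1 was higher in APP/PS1 microglia. The ferroxidase gene Cp rose in astrocytes by 1.43 ± 0.25 (adjusted p = 0.00207) and Commd1 by 0.45 ± 0.10 (0.0057), while Sod1, the copper-zinc superoxide dismutase gene, fell by 0.46 ± 0.09 (0.00258) and Ccs, its copper chaperone, by 0.43 ± 0.08 (0.00259). The copper importer gene Slc31a1 rose in microglia by 0.42 ± 0.08 (adjusted p = 0.00636). Of 5 manganese genes, Slc40a1, which encodes the iron exporter ferroportin, rose in astrocytes by 0.97 ± 0.22 (adjusted p = 0.00762) and fell in microglia by 1.09 ± 0.17 (0.00161), with a difference of 2.06 ± 0.28 between the cell types (6.94e-04). Atp13a1 fell in both, by 0.41 ± 0.07 in astrocytes (0.00173) and 0.34 ± 0.05 in microglia (0.00178). In microglia Tmem165 also fell, by 0.24 ± 0.07 (0.0373), and Slc11a2, a proton-coupled iron and manganese importer gene, rose by 0.22 ± 0.07 (0.0462).

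Stress genes that heavy metals and heat are known to raise moved in both directions. Of the 8 tested, 2 were higher and 3 lower in APP/PS1 astrocytes (median -0.06), and 2 were higher and 3 lower in APP/PS1 microglia (median -0.29). In astrocytes the chaperone genes Hspb1 and Hspa1a rose by 0.90 ± 0.14 (adjusted p = 0.00121) and 1.64 ± 0.37 (0.00711), while Srxn1 fell by 0.52 ± 0.10 (0.00401) and Hmox1, the heme oxygenase gene, by 0.90 ± 0.24 (0.0169). In microglia Srxn1 and the thioredoxin reductase gene Txnrd1 rose by 1.12 ± 0.08 (1.48e-05) and 1.08 ± 0.11 (1.38e-04), and Gclc and Hspb1 fell by 0.42 ± 0.11 (0.0199) and 0.37 ± 0.11 (0.042).

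The genes most like each member were found from the within-array genotype differences, over the arrays with a value for that member. Only genes measured on all 11 arrays were ranked, so Mt1 and Slc30a10 could not be listed for any member. The nearest of 16310 genes to Mt1 was Mt2 (Pearson r = 0.994 over 10 arrays), followed by Smpdl3a (0.987) and Cyp2d22 (0.981). Among the ranked genes, which did not include Mt1, those nearest to Mt2 were Smpdl3a (0.990), Gm5523 (0.986) and Pgk1 (0.983) over 11 arrays. Those nearest to Mt3 were 2900052N01Rik (0.982), Acot13 (0.977) and Amn1 (0.976). Slc39a12 had no gene as close, with Ctnnd2, 4930471M09Rik and Olfr1260 at 0.902, 0.902 and 0.893. For Slc39a14 they were Rnf24, Nmral1 and Mmachc (0.971, 0.964 and 0.963), for Slc39a1 Mapre3, Mroh5 and Utp23 (0.961, 0.961 and 0.950), and for Slc30a1 Tap2, Ablim1 and Pltp (0.971, 0.966 and 0.964). Slc30a10, on 6 arrays, had Ankfn1, Snx14 and Rab5a (0.998, 0.997 and 0.994). Mt3 was the 380th nearest gene to Mt2 (r = 0.923), while Slc30a1 gave r = -0.57 with Mt2 and -0.68 with Mt3. These values describe arrays of 2 cell types that differ in their effects, so a shared contrast between cell types enters every one of them.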

How the data were processed

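Agilent dual-colour arrays had been read for 22 samples, and the authors deposited log2 values per probe and sample. Limma is named in the submitters' processing notes, with no version, and background correction, normalization and the reason for blank cells were "not given in the sources used here". Of 43020 probes, 33026 name 1 gene, 0 several and 9994 none; 32438 were matched to RefSeq by gene identifier and 0 symbols changed. Each of 22485 genes was read by its probe with the highest mean.

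The values were fitted with limma 3.58.1 (R 4.3.3, statmod 1.5.0) with array as a block, dye as a covariate and genotype within cell type, for genes measured on at least 2 arrays of a cell type, and the script was tested on simulated data. Cell types were compared by their difference in WT, from a separate fit of all 22 samples with dye as a covariate and array as a random rather than a fixed block. Adjusted p-values are Benjamini-Hochberg over all genes, with a threshold of 0.05, and intervals are 95% intervals. Single genes also had exact two-sided sign-flip tests over arrays. Figures were drawn with matplotlib 3.10.9 and tables made with pandas 2.3.3, numpy 2.4.6 and scipy 1.17.1 under Python 3.11.15.

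Pairing comes from the labels, since the samples of one number share an array. The deviations of such samples correlated across genes with a median r of 0.474 in microglia (0.367 to 0.631, 7 arrays) and 0.0809 in astrocytes (-0.0039 to 0.326, 4 arrays). The number of arrays limits the precision.

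All 8 genes are named, and from each list of related genes up to 4 with the smallest adjusted p in a comparison. The members and lists were chosen with earlier results of these data known. Alternatives changed the block, dye term, normalization, probe choice, filters, slide and samples; those using Eif2s3y were added after seeing the data. Probe sequences were not used here, so shared binding by Mt1 and Mt2 RNA was not tested.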

Additional observations from a re-analysis of the deposited data

Results flagged for a closer look

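Within groups of 4 to 10 samples, 42 sets of values were searched for a sample set apart from the rest, where chance marks about 1 in 20 sets. The microglia sample of replicate 2 stood high for Mt1 in APP/PS1 (15.03) and for Mt2 in both APP/PS1 (12.54) and WT (10.97), and its array gave Mt1 and Mt2 differences in the same direction as the other arrays. Slc30a1 was low in the WT microglia sample of replicate 4 (6.33). Slc39a12 differed by -1.95 on microglia array 4, further from 0 than on the other 6 arrays.

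The genotype effect differed between the cell types (astrocytes minus microglia, limma interaction) by -1.75 for Mt1 (adjusted p = 7.90e-04), -2.58 for Mt2 (1.48e-04), -1.04 for Mt3 (0.00269) and -0.69 for Slc39a14 (0.0232). Astrocyte and microglia arrays lay on different slides.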

How the results depend on the processing

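The main design took array as the block that pairs same-numbered samples. With no replicate block, 2452 genes and 3 of the 8 members passed in astrocytes, 1182 genes in microglia, and 1497 genes and 2 members for the difference between cell types; without it every adjusted p rests on the spread between unpaired samples. Astrocytes fitted alone gave 2861 genes and 3 members. Microglia slide 1 alone gave 1420 genes, and slide 2 alone 661 genes and 2 members, with fewer samples in each. Slide as a random block gave 7256 genes between cell types. Arrays matched in Eif2s3y, chosen after seeing the data, gave 4454 genes in astrocytes.

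Leaving out 1 replicate at a time gave 5518 to 7532 genes and 4 to 7 members in astrocytes, 3285 to 4621 genes and 3 to 4 members in microglia, 4418 to 5933 genes and 3 to 4 members for the difference, and 10948 to 12254 genes and 7 to 8 members between cell types. The effect difference of Slc39a12, near 0, turned to 0.15 with the mean of its probes, 0.19 without astrocyte replicate 1 and 0.00055 without astrocyte replicate 4, and ran from -0.41 to 0.19 over all left-out replicates; the cause was not tested.

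Over alternatives for single members, 151 astrocyte values kept direction and side of the threshold, 13 lost the call and 1 gained it; in microglia these were 164, 14 and 1, for the difference 141, 5 and 6 with 3 reversed, and between cell types 132 with 0 lost. Slc30a10 in microglia cannot be tested without replicate 6 or 7, and Mt1 in astrocytes cannot on arrays matched in Eif2s3y.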
